A study of Mus musculus with 6 samples.

Results

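The c-Jun N-terminal kinases (JNKs) and their immediate partners were examined in testes of mice that lack Alkbh1, which encodes a dioxygenase of the AlkB family. The members are the genes for the 3 kinases (Mapk8 for JNK1, Mapk9 for JNK2, Mapk10 for JNK3), the activating kinases Map2k4 and Map2k7, the scaffolds Mapk8ip1, Mapk8ip2, Mapk8ip3 and Spag9, and the substrate Jun. Every probe set whose platform gene symbol was exactly one of these 10 symbols was taken, which gave 28 of 45037 non-control probe sets and 9 of the 10 genes. No probe set was named for Map2k7, so it was not analysed here. On this platform several short probes against one stretch of a transcript form a probe set, and a gene may be read by more than one. The pathway was selected on the KO minus WT difference of a Mapk8 probe set in these same arrays, so all Mapk8 differences below are descriptions.

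Whole testes came from 12-week-old mice, 3 Alkbh1-/- (KO) and 3 wild type (WT), and each mouse gave 1 Affymetrix array. Both groups are labelled as C57/BL6 in background, although the genotype field spells the strain C53/BL6. The labels call the samples biological replicates. They do not say which part of Alkbh1 was deleted, or whether the knockout is in all cells. The values are normalized expression on a log2 scale. A filter on low values left 23 member probe sets for the test, and the standard errors of their KO minus WT differences had a median of 0.0948 log2, against 0.082 over all tested probe sets. With 6 arrays the precision is limited.

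JNKs are stress-activated members of the mitogen-activated protein kinase family. Upstream kinases (MAP3Ks) switch on MKK4 and MKK7, the products of Map2k4 and Map2k7, which phosphorylate the JNKs. Scaffold proteins of the JIP family hold these layers together, and active JNK phosphorylates c-Jun and other substrates. JNK1 and JNK2 are found in most tissues, whereas JNK3 is known mainly from brain, heart and testis. Spag9, sperm-associated antigen 9, encodes the scaffold also called JLP or JIP4.

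Mapk8 is shown with its promoters because its probe sets did not tell the same story. The RefSeq table lists 2 start sites for it, as it does for Mapk10, Map2k4, Map2k7 and Spag9. Whether the start sites bear on the Mapk8 probe sets was not tested. Each sequence gives the 250 bases before a start site (RefSeq, GRCm38.p6, minus strand of chromosome 14), the upstream site at chr14:33447159-33447408 and the internal one, inside the gene, at chr14:33411025-33411274. That of Jun lies at chr4:95052223-95052472, also on the minus strand, and is shown because AP-1, the factor that contains c-Jun, is known to act on its own promoter. Capitals mark matches to the motifs searched, and the Mapk8 sequences had none.
Mapk8 upstream start: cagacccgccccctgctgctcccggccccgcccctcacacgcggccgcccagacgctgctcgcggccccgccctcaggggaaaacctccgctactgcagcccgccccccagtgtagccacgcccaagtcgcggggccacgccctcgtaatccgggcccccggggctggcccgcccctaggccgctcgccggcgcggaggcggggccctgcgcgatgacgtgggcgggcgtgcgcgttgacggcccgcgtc
Mapk8 internal start: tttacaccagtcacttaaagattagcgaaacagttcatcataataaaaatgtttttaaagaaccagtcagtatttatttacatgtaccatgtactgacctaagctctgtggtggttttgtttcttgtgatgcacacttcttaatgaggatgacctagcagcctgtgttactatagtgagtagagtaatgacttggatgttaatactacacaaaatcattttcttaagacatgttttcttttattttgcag
Jun: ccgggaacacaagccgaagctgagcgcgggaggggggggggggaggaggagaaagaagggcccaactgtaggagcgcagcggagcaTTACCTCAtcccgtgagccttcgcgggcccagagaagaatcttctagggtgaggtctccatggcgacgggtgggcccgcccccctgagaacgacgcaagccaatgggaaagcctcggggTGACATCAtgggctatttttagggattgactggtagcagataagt

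The Mapk8 sequences were unlike each other in composition. The upstream one held 79.2% G and C and 36 CpG pairs, and the internal one 33.2% and 1 CpG pair, against medians of 52.4% and 6 over 32851 promoter windows of the same length. The internal one ends in cag, the letters that usually close an intron. The G and C share also differed between the windows of Spag9 (80% and 38.8%) and of Mapk10 (54.8% and 31.2%). It differed less for Map2k4 and Map2k7. The motifs searched on both strands were TGANTCA (AP-1), TGACGTCA (ATF) and the 2 AP-1-like elements known from the Jun promoter, TGACATCA and TTACCTCA, none of which contains another. The Jun window held TGACATCA from 45 to 38 bases before the start and TTACCTCA from 164 to 157 bases before it. Both elements were added after the Jun sequence was seen, so finding them there was fixed in advance. Of all windows, 2.93% held TGACATCA and 0.728% held TTACCTCA. TGACGTCA was found from 29 to 22 bases before the first Mapk10 start (1.55% of all windows) and TGANTCA in one Map2k7 window (6.75% of all windows). The promoter table held 14 windows for 9 of the 10 genes, and Mapk8ip1 had no entry.

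The genotype was checked first. Alkbh1 probe set 1434660_at read 5.76, 5.30 and 5.20 log2 in KO replicates 1 to 3, against 8.43, 8.65 and 8.72 in WT replicates 1 to 3, a difference of −3.18 ± 0.15 (SE, limma adjusted p = 0.000582). A further Alkbh1 probe set, 1438681_at, read 6.03, 5.78 and 6.10 in KO, against 6.97, 6.82 and 7.16 in WT, without overlap, and its difference of −1.02 ± 0.12 (SE) did not pass (limma adjusted p = 0.0697). Both probe sets of the targeted gene were thus lower on every KO array than on any WT array. Over 27022 tested probe sets the arrays correlated at 0.989 to 0.996. WT replicates 1 and 2 stood at opposite ends of the first principal component (−24.36 and 21.03), and their spiked-in control RNAs averaged 6.69 and 9.41 log2, against 7.59 to 8.10 on the other 4 arrays. Among the 23 tested member probe sets, the WT range was wider than the KO range in 20 (87.0%), against 65.4% of all tested probe sets. Elongating spermatid markers, which define adult testis, stood at or above the 99.8th percentile of non-control probe sets for all 10 genes, so the label of the tissue fitted them.

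Between KO and WT, Mapk8 was the only member with a called probe set, and its probe sets disagreed. Its 5 probe sets are called A to E by rising mean level, and their platform IDs stand on the plot of the Mapk8 values. Probe set A averaged 2.79-fold higher in KO, B was 1.38-fold higher without passing, and the 3 brightest differed by 0.14 log2 or less in size. The 23 probe sets of the other 8 genes differed by −0.14 to 0.13 log2, and 0 of the 18 tested passed. Over the 23 tested member probe sets, 1 was called (limma, Benjamini-Hochberg adjusted p under 0.05), against 0.0407% of all tested probe sets. That call is the one for which the pathway was chosen, and nothing is read from the count.

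Mapk8 encodes JNK1. Its probe set A read 7.81, 7.5 and 7.85 log2 in KO replicates 1 to 3, against 6.30, 6.08 and 6.33 in WT replicates 1 to 3. All 3 KO values lay more than 1 log2 above the highest WT value, and the difference was 1.48 ± 0.12 (SE). Replicate 2 was the lowest array of both genotypes. The difference ran from 1.41 to 1.59 when any 1 array was left out. It did not pass without KO replicate 1 (1.44), KO replicate 3 (1.42) or WT replicate 3 (1.53), nor without WT replicates 1 and 2 together (1.39), the arrays that stood apart.

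Mapk8 probe set B (1440856_at) read 8.06, 8.03 and 8.06 in KO replicates 1 to 3, against 7.65, 7.56 and 7.57 in WT replicates 1 to 3. The groups did not overlap and varied little (SD 0.018 in KO and 0.049 in WT), with a difference of 0.46 ± 0.06 (SE) that missed the threshold. Without WT replicates 1 and 2 it was 0.48. With array weights it passed, at 0.47.

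The other 3 Mapk8 probe sets had overlapping groups. Probe set E (1420932_at) read 8.94, 8.93 and 8.92 in KO, against 8.96, 8.83 and 8.98 in WT (0.01 ± 0.06 SE), and the sign of this small difference turned with quantile normalization (−0.0069). Probe set C (1420931_at), designed from the same sequence record, read 8.17, 8.17 and 8.02 in KO, against 7.85, 8.12 and 8.16 in WT. Its difference was 0.08 ± 0.10 (SE). Only WT replicate 1 lay apart, and without it the difference was −0.02. Probe set D (1437045_at) read 8.79, 8.76 and 8.83 in KO, against 8.62, 9.15 and 9.04 in WT (−0.14 ± 0.13 SE). Here WT replicate 1 was the lowest and WT replicate 2 the highest of the 6 arrays.

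**Figure D1:**
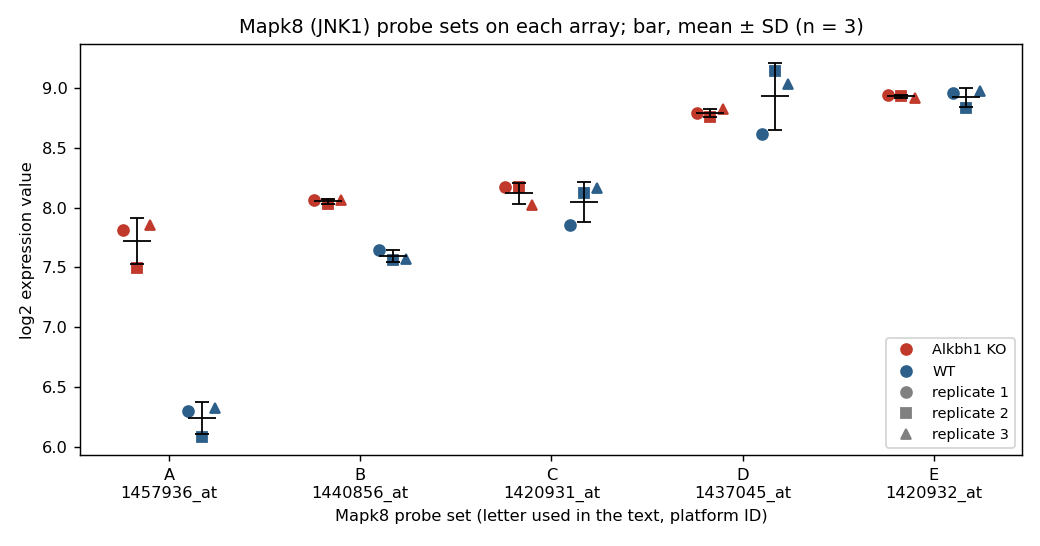
Log2 expression values (y axis) of the 5 Mapk8 probe sets (x axis, A to E by rising mean) on each array, with KO in red left of WT in blue, a marker shape per replicate number, and mean ± SD (n = 3). At A and B the KO values lie above all WT values, while at the other 3 the genotypes overlap.

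Set against each other within an array, the Mapk8 probe sets moved apart by genotype. Probe set A minus E, the brightest, was −1.14, −1.44 and −1.07 log2 in KO, against −2.66, −2.75 and −2.65 in WT. A minus B was −0.26, −0.53 and −0.21 in KO, against −1.35, −1.48 and −1.24 in WT. The higher KO reading of A was thus not shared in size by any other Mapk8 probe set. The highest minus the lowest of the 5 differences came to 1.62 log2. Among the 463 genes with 5 probe sets, the median of this range was 0.193, and 1 gene, Mapk8 itself, reached 1.62, with 4833420G17Rik next at 1.05. The Mapk8 range contains the difference of probe set A, for which the pathway was chosen. Its rank is therefore a description and no support. Mapk8ip2, also with 5 probe sets, had a range of 0.195.

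The 5 Mapk8 probe sets were designed from 4 sequence records, and the 2 with non-overlapping groups come from a record each. Which part of the transcript each one reads was not analysed here. All 5 have names that end in _at without a letter before it, the platform's form for a probe set meant to match 1 transcript sequence.

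**Figure D2:**
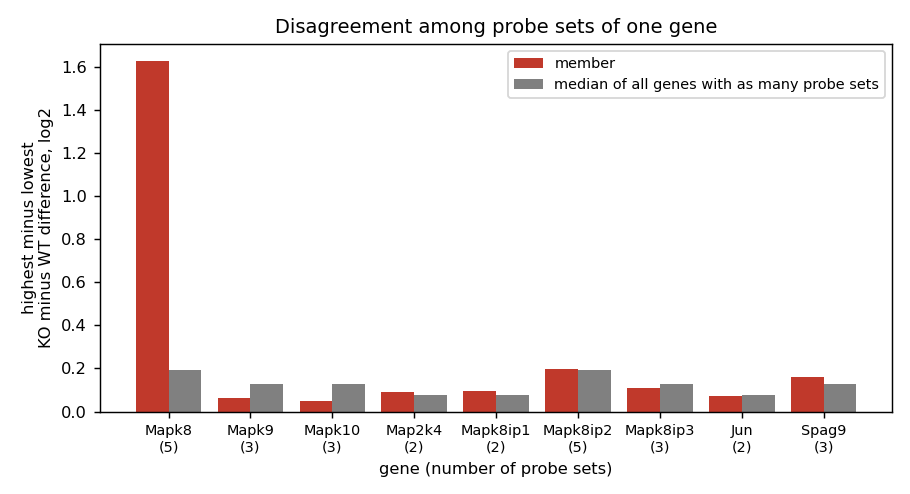
For each member with at least 2 probe sets, the highest minus the lowest KO minus WT difference among its probe sets (log2, red bars), beside the median of that range over all genes with as many probe sets (grey bars). Mapk8 reaches 1.62 where genes with 5 probe sets have a median of 0.193, and the other members lie at 0.195 or below. The Mapk8 range contains the difference for which the pathway was chosen.

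Mapk9 encodes JNK2, the paralog that overlaps most with JNK1 in function. Its brightest probe set, 1421877_at, read 9.95, 9.98 and 9.94 in KO replicates 1 to 3, against 9.75, 9.92 and 9.91 in WT replicates 1 to 3. The KO values were just above all WT values, with WT replicate 1 lowest. The difference was 0.09 ± 0.06 (SE) with a 95% interval of −0.06 to 0.24 (limma adjusted p = 0.993). Its other probe sets, 1421876_at and 1421878_at, overlapped between genotypes, at 0.07 ± 0.07 and 0.03 ± 0.07 (SE). All 3 were designed from 1 sequence record and lay between the 81.1 and 86.4 percentiles of all non-control probe sets by mean level.

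Mapk10 encodes JNK3. Probe set 1448342_at read 9.72, 9.65 and 9.82 in KO, against 9.51, 9.81 and 9.80 in WT, and the groups overlapped (0.02 ± 0.09 SE, limma adjusted p = 0.997). Probe set 1437195_x_at, whose x marks probes that can also bind other transcripts, read 10.10, 10.20 and 10.50 in KO, against 9.92, 10.59 and 10.37 in WT. WT replicates 1 and 2 were its lowest and highest arrays, and its difference of −0.03 ± 0.17 (SE) had a 95% interval of −0.43 to 0.37. The third, 1458513_at, read 3.88 to 4.08 in KO and 3.92 to 4.09 in WT, at the 11th percentile, under the level filter. The bright and dim probe sets of Mapk10 thus stood at percentiles 88.8, 85.0 and 11 of the same arrays.

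Brightness depends on the probes as well as on the transcript, and no order of the paralogs in amount is read from these levels. Every one of the 3 JNK genes had at least 1 probe set well into the upper part of the range, at percentile 78.1 for Mapk8, 86.4 for Mapk9 and 88.8 for Mapk10. Because JNK3 and the scaffold JIP2 are known from neurons, neuronal markers were read beside them. Of 6 such markers 3 (Nefl, Nefm and Snap25) lay under the level filter, and Syt1, Syn1 and Tubb3 lay above it, at percentiles 42.0, 48.3 and 72.3. The mean over the 6 was 5.42 to 5.52 log2 in KO and 5.50 to 5.60 in WT, with 5 of 6 lower in KO. Tubb3 was at −0.22 without overlap between the groups (limma adjusted p = 0.932), and the part of these markers in the member values was not tested. In whole testis, fewer cells of a type and less RNA per cell cannot be told apart.

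Map2k4 encodes MKK4, which activates both JNK and p38 kinases. Probe set 1451982_at read 8.0, 7.91 and 7.99 in KO, against 7.96, 8.12 and 8.15 in WT. The groups overlapped through WT replicate 1 alone. The difference was −0.11 ± 0.07 (SE), with a 95% interval of −0.28 to 0.06 (limma adjusted p = 0.993). Probe set 1426233_at stood at −0.02 ± 0.11 (SE), and its sign turned when WT replicate 1 was left out (0.09).

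Among the scaffolds, Mapk8ip1 encodes JIP1. Its probe set 1425679_a_at, whose a marks a match to several transcripts of the gene, read 7.92, 7.80 and 7.85 in KO, against 7.82, 7.63 and 7.84 in WT. The groups overlapped, and the difference was 0.10 ± 0.08 (SE, limma adjusted p = 0.993). Its other probe set, 1440619_at, lay under the level filter at the 38.1 percentile, with a difference of 0.0010.

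Mapk8ip2 encodes JIP2 and gave the brightest reading of any member probe set. Probe set 1449225_a_at read 11.14, 11.09 and 11.10 in KO, against 10.94, 11.35 and 11.25 in WT, with a difference of −0.07 ± 0.10 (SE). The KO arrays lay together between the WT extremes. Probe set 1418785_at read 10.38, 10.45 and 10.41 in KO, against 10.30, 10.37 and 10.35 in WT. All KO values were above all WT values, by a small margin, and the difference was 0.08 ± 0.05 (SE) with a 95% interval of −0.05 to 0.20 (limma adjusted p = 0.993). The other tested ones, 1418786_at and 1435045_s_at, stood at −0.08 ± 0.07 and 0.06 ± 0.10 (SE), and 1455194_at, under the filter, differed by 0.12. Over these 5 probe sets the mean level ran from the 26.1 to the 93.5 percentile, although they came from only 2 sequence records.

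Mapk8ip3 encodes JIP3, a scaffold that also links cargo to kinesin motors. Probe set 1425975_a_at read 8.37, 8.36 and 8.40 in KO, against 8.36, 8.26 and 8.14 in WT. The groups touched at KO replicate 2 and WT replicate 1. The difference was 0.13 ± 0.07 (SE), the highest outside Mapk8, with a 95% interval of −0.05 to 0.30 (limma adjusted p = 0.993). Its other tested probe set, 1416437_a_at, was at 0.01 ± 0.13 (SE) and 1436676_at, under the filter at the 15.4 percentile, at 0.04.

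Spag9 was bright at 1433648_at, with 10.71, 10.68 and 10.82 in KO, against 10.41, 10.82 and 10.79 in WT. Only WT replicate 1 lay below the KO arrays. The difference was 0.06 ± 0.11 (SE, limma adjusted p = 0.994), and without WT replicate 1 it was −0.07. Probe sets 1437676_at and 1430556_at stood at −0.09 ± 0.23 and −0.10 ± 0.15 (SE), and the 95% interval of 1430556_at was −0.45 to 0.26. The first of these ran from 6.54 to 7.17 in KO and from 6.43 to 7.30 in WT, the widest WT range of any member.

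Jun encodes the AP-1 subunit that gave the kinases their name. Probe set 1417409_at read 7.91, 8.16 and 8.21 in KO, against 8.27, 8.20 and 8.23 in WT. KO replicate 1 was low and KO replicate 3 overlapped WT, and the difference was −0.14 ± 0.09 (SE) with a 95% interval of −0.34 to 0.07 (limma adjusted p = 0.993). Without KO replicate 1 it was −0.05. Probe set 1448694_at, from the same record, lay just under the level filter (mean 5.90, filter at 6.02) and differed by −0.06.

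**Figure D3:**
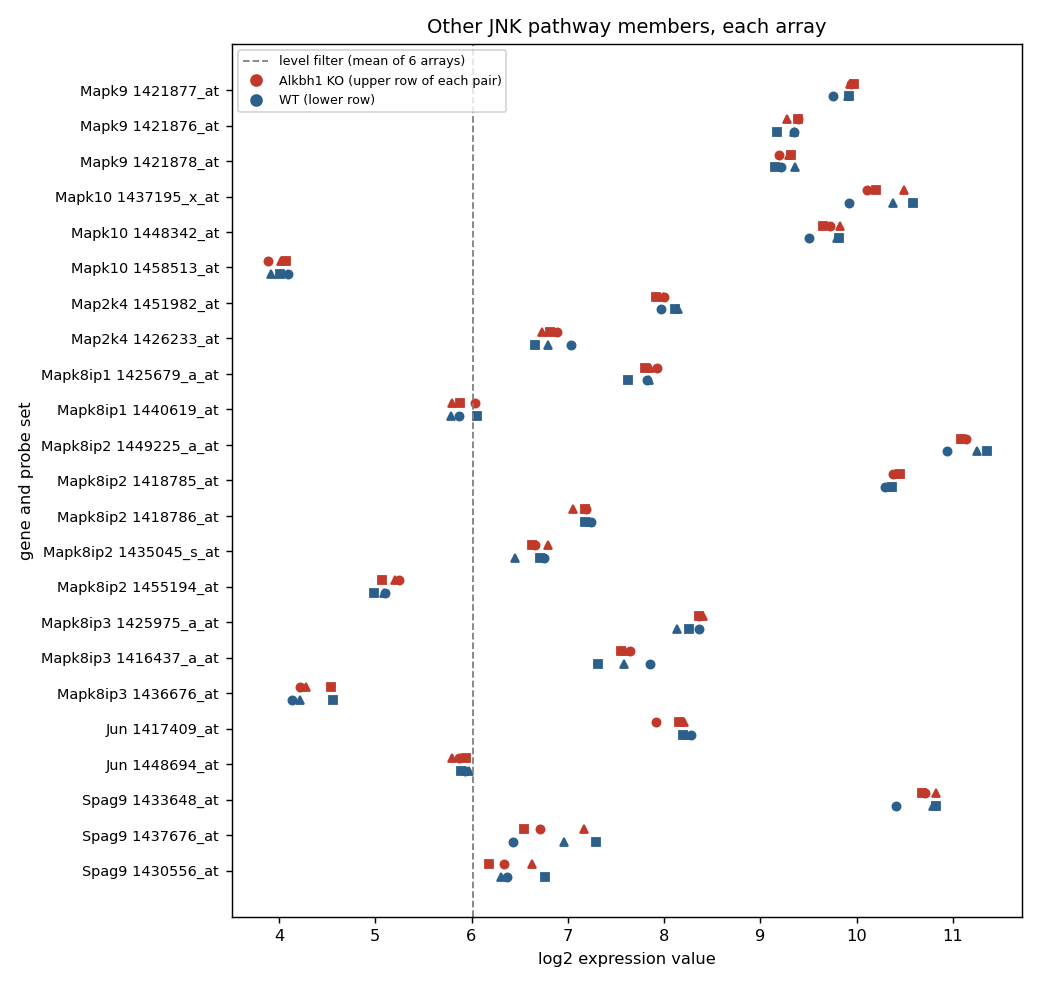
Log2 expression values (x axis) of the 23 probe sets of the 8 members other than Mapk8 (y axis) on each array, with KO in red above WT in blue and a marker shape per replicate number. The dashed line is the level filter of 6.02 for the mean of the 6 arrays, and 5 probe sets lie under it. The genotypes overlap at all but 2 probe sets, 1421877_at of Mapk9 and 1418785_at of Mapk8ip2.

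Over the 8 genes other than Mapk8, the 18 tested probe sets split into 10 higher and 8 lower in KO. Their median was 0.019 log2, against 0.013 over all tested probe sets. Their limma adjusted p ran from 0.993 to 0.999, and 0 were at an unadjusted p under 0.05, which 5.11% of all tested probe sets reached. Without the level filter, 0 of their 23 probe sets passed in limma. KO and WT did not overlap at 2 of the 23, against 10.3% of all non-control probe sets. A p that missed the threshold does not show equal levels, and the widest 95% interval among the 18, that of Spag9 probe set 1437676_at, ran from −0.63 to 0.45 log2.

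**Figure D4:**
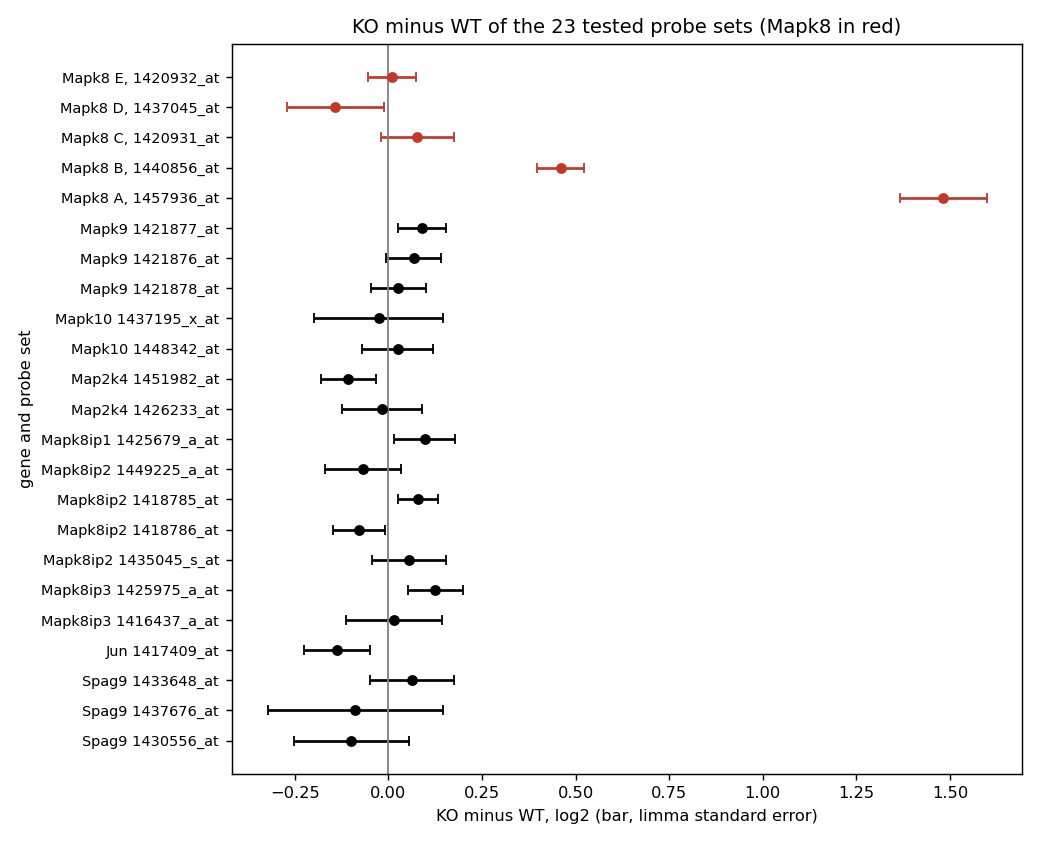
KO minus WT differences (log2, x axis) with limma standard errors for the 23 tested member probe sets (y axis), Mapk8 in red and the others in black. Probe sets A and B of Mapk8 stand at 1.48 and 0.46, and the other 21 lie between −0.14 and 0.13.

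Other genes of the pathway were read from 4 lists. None of them held a called probe set, but only 0.0407% of all tested probe sets were called, so nothing is read from this. The MAP3K and MAP4K activators, listed with the GTPases Rac1 and Cdc42, had 53 tested probe sets of 22 genes. Of these probe sets 23 were higher and 30 lower in KO (median −0.0082). At an unadjusted p under 0.05 there were 5, or 9.43%, beside 5.11% of all tested. Tnik, a MAP4K-type kinase, differed by 0.29 ± 0.07 at 1430579_at (limma adjusted p = 0.81), with 7.30, 7.18 and 7.30 in KO, against 6.93, 7.01 and 6.97 in WT. The groups did not overlap there, but its other tested probe sets stood at 0.13 and −0.07. Map3k7 encodes TAK1, which acts upstream of MKK4 and MKK7. Its probe sets also differed in sign, at −0.24 ± 0.07 for 1425795_a_at and 0.30 ± 0.12 for 1426627_at (SE, limma adjusted p = 0.863 and 0.95), and at −0.11 and −0.04 for the other 2 tested.

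The list of MAP kinase phosphatases and JNK-binding proteins had 41 tested probe sets of 22 genes, 19 higher and 22 lower in KO. It includes phosphatases that are not particular to JNK, such as Dusp6. The median was −0.0068, and 1 probe set was at an unadjusted p under 0.05 (limma). That was Dusp16, which encodes a phosphatase that dephosphorylates JNK. It read 9.54, 9.53 and 9.60 in KO, against 9.27, 9.28 and 9.24 in WT. The groups lay apart by more than their own ranges, with a difference of 0.29 ± 0.05 (SE, limma adjusted p = 0.413). Dusp1, an inducible phosphatase of MAP kinases, stood at 0.19 ± 0.09 with overlapping groups (limma adjusted p = 0.993).

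The AP-1 and other JNK substrates had 30 tested probe sets of 16 genes, 13 higher and 17 lower, with a median of −0.0092 and 0 at an unadjusted p under 0.05 (limma). Nfatc4, a transcription factor, differed by −0.16 ± 0.08 at 1454369_a_at and by 0.02 ± 0.07 at 1423380_s_at (SE, limma adjusted p = 0.993 and 0.996). Atf7, a partner of Jun proteins, differed by −0.13 ± 0.07 at its tested probe set 1425653_at (SE, limma adjusted p = 0.993). Its other probe set, 1437645_at, lay under the level filter and differed by −0.33 without overlap. The ERK and p38 kinases had 24 tested probe sets of 11 genes, 14 higher and 10 lower, with a median of 0.011. Mapk6, which encodes ERK3, was at 0.12 ± 0.05 at 1419169_at, the 1 probe set of this list at an unadjusted p under 0.05 (limma adjusted p = 0.918), and at 0.18 and 0.02 at its other tested probe sets. Map2k3, an activator of p38, was at 0.10 ± 0.07 at 1451714_a_at and 0.04 ± 0.09 at 1425456_a_at (SE, limma adjusted p = 0.993 and 0.994).

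Mapk8 lies on chromosome 14, while Alkbh1 lies on chromosome 12. The 5 nearest measured genes on either side of Mapk8 in the RefSeq order were read at their brightest probe set. Their median difference was −0.018 log2, and 7 of the 10 were tested. In limma 0 were called, beside 0.0407% of all tested probe sets. At an unadjusted p under 0.05 there were 2, beside 5.11% of all tested probe sets. Both of those were lower in KO, on the same side of Mapk8. Wdfy4 read 7.80, 7.83 and 7.74 in KO, against 8.30, 8.38 and 8.20 in WT, a difference of −0.50 ± 0.07 (SE, limma adjusted p = 0.131). Its groups did not overlap there. The other Wdfy4 probe set, 1446867_at, lay under the level filter and differed by −0.02 with overlapping groups. Arhgap22, the gene next to Mapk8, was at −0.22 ± 0.09 (SE, limma adjusted p = 0.932), also without overlap. KO and WT thus did not overlap at 2 of the 10, against 10.3% of all non-control probe sets.

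The remaining neighbours were small or dim. Fam170b stood at 0.16, Vstm4 at 0.03, Lrrc18 at −0.11, Ptpn20 at 0.02 and Gdf2 at −0.01. The other probe set of Lrrc18, 1449894_at, had the opposite sign, at 0.09. Frmpd2 (0.27), Gdf10 (−0.11) and Rbp3 (−0.02) lay under the level filter. The difference of Mapk8 probe set A was thus not shared by the nearest measured genes in size. The 2 with the clearest separation had the opposite sign at their tested probe sets, and nothing is read from this for the region. Around the other 8 measured members, the medians over 10 neighbours ran from −0.0010 for Mapk8ip3 to 0.11 for Mapk8ip2, and 0 of their tested neighbours were called.

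**Figure D5:**
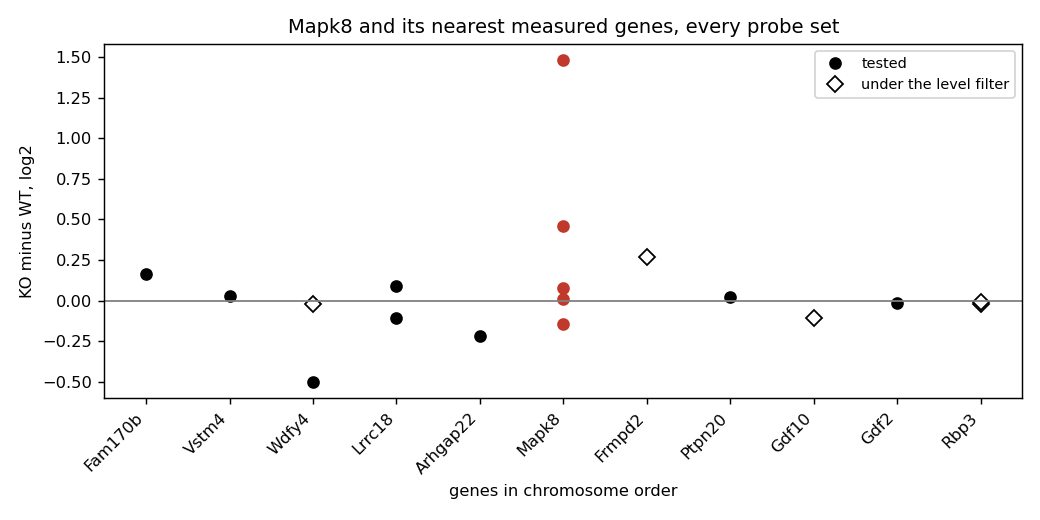
KO minus WT differences (log2, y axis) of every probe set of Mapk8 (red) and of the 5 nearest measured genes on either side, in chromosome order (x axis). Filled circles were tested and open diamonds lay under the level filter. Wdfy4 at −0.50 and Arhgap22 at −0.22 lie on one side of Mapk8, whose probe sets reach 1.48.

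The genes whose pattern over the 6 arrays was closest to that of Mapk8 probe set A were found by the root-mean-square distance between log2 values centred on their own mean. Grin2b, an NMDA receptor subunit, was closest at 0.201, followed by Ptpro, a receptor tyrosine phosphatase, at 0.352. Then came 4930521O11Rik at 0.367, the secreted matrix gene Ccdc80 at 0.388 and 4933406F09Rik at 0.412. Grin2b and Ptpro lie on chromosome 6, as Dusp16 does, 4930521O11Rik and 4933406F09Rik on chromosome 14, as Mapk8 does, and Ccdc80 on chromosome 16. The distance of Mapk8 from a flat line was 0.753. Grin2b had 10.23, 10.41 and 10.55 in KO, against 8.96, 9.03 and 9.34 in WT, so that KO replicate 2, the lowest KO array at Mapk8, lay in the middle there. Likeness of this kind picks genes with a large difference between genotypes.

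Cell composition was read from marker lists, at the brightest probe set of each gene. Sertoli markers averaged 9.30 to 9.33 log2 in KO and 9.38 to 9.40 in WT, with 7 of 10 genes lower in KO. Round spermatid markers averaged 12.33 to 12.46 in KO and 12.25 to 12.37 in WT, with 8 of 8 measured genes higher. Elongating spermatid markers averaged 14.46 to 14.49 in KO and 14.40 to 14.47 in WT, with 10 of 10 higher. Of all 27022 tested probe sets, 15231 were higher in KO. These shifts of the list means, all under 0.1 log2, stand beside a Mapk8 difference of 1.48, and their part in it was not tested. Markers of epididymis and fat averaged 7.69 in KO replicate 2 and 6.46 and 6.48 in the other KO arrays, against 6.16 to 6.88 in WT. Of 6 listed genes 4 were measured, and Adam7 and Lcn5 lay under the level filter. Fabp4 read 9.80 in KO replicate 2, against 6.84 and 7.09 in the other KO arrays, and Adam7 6.78, against 5.17 and 5.10. Adipoq (8.69, against 8.47 and 8.44) and Lcn5 (5.48, against 5.35 and 5.31) rose less. The WT arrays varied too. Fabp4 read 8.38 in WT replicate 3, against 6.11 and 5.77 in the other WT arrays. Adam7 read 5.94 in WT replicate 1, against 5.01 and 5.11. KO replicate 2 was the lowest KO array at Mapk8 probe set A, and without it the Mapk8 difference was 1.59. WT replicate 2 was the lowest WT array both in the mean of these markers (6.16) and at probe set A (6.08). Whether these markers bear on the Mapk8 values was not tested.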

How the data were processed

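Whole testes of 3 KO and 3 WT mice were profiled on 6 Affymetrix arrays from Trizol RNA of RIN 9.8 to 10, labelled with biotin, per the labels' protocols. The authors deposited 1 table of normalized log2 values for 45101 probe sets. The submitters' processing notes name GCOS (version 1.4). The sources used here do not give how background was corrected, probes summarised or arrays normalized. That the deposited values are log2 follows from their range of 2.61 to 15.00, with nearly equal array medians. Normalization of this kind can hide a shift common to all genes. Without detection calls, which were not used here, signal cannot be set against background.

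After removal of 64 control probe sets, the upper 60% of the other 45037 by mean log2 over all arrays were tested (27022, lowest mean 6.02). KO was compared with WT by limma 3.58.1 (R 4.3.3; lmFit, eBayes with trend, two-sided), with Benjamini-Hochberg adjustment over all tested probe sets at 0.05 and 95% intervals from the same fit. Groups came from the sample titles. Gene symbols are those of the platform annotation, brought up to date by gene id in RefSeq GRCm38.p6 (99.4% matched); probe sets with several genes were not named. The members, lists and tests were chosen with earlier results of these data known. Named were all members, genes near Mapk8 or most like it, and up to 2 genes per pathway list with the smallest p. The 2 elements of the Jun promoter were added to the motif search after the sequence was seen. Proteins were not analysed here. On simulated arrays (27022 probe sets, 5 runs of 200 changed), 49.2% of changes of 0.5 log2 and 87.2% of changes of 1 log2 were called. The simulated noise was independent for each value, and the 200 changes per run exceed the 11 calls in the data. These shares can therefore overstate how often such changes would be called here. Alternatives were quantile normalization, other level filters, a replicate block, other variance settings, array weights and leaving out arrays.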

Additional observations from a re-analysis of the deposited data

How the results depend on the processing

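The Mapk8 differences at probe sets A and B kept their sign under all alternatives that gave a value (1.38 to 1.59 and 0.44 to 0.49). The pathway was chosen on the difference of probe set A in these same arrays. Its kept sign, and the counts of called members that rest on it, are therefore descriptions and no support. Of member probe sets 1 was called, and 1 also with quantile normalization, no level filter, a replicate block, no trend or robust variances. It was 2 with array weights and 0 with only the upper 40% by level, where Mapk8 probe set A was not tested. It was 0 without WT replicates 1 and 2, and 0 to 1 leaving out 1 array. The count over all probe sets was 11. It was 46 with array weights, 7 with the upper 40%, 2 without WT replicates 1 and 2 and 2 to 12 leaving out 1 array, and the cause was not tested. With the replicate block 9 were called. Deviations of same-numbered arrays correlated at 0.22, −0.02 and 0.10. With so few arrays this cannot decide whether the numbers pair the mice.

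Of 23 tested member probe sets, 12 changed sign under an alternative, each with a main difference of 0.10 log2 or less in size; none of these passed the test in any setting. Quantile normalization turned 1420932_at of Mapk8 (−0.0069). Array weights turned 1426233_at of Map2k4 (0.0186), 1448342_at of Mapk10 (−0.0636), 1420932_at of Mapk8 (−0.0175), 1421878_at of Mapk9 (−0.0291) and 1433648_at of Spag9 (−0.0412). Leaving out WT replicates 1 and 2 turned 1426233_at (0.0166), 1448342_at (−0.0666), 1420931_at (−0.0394) and 1420932_at (−0.0435) of Mapk8, 1421878_at (−0.0926), and 1430556_at (0.0727) and 1433648_at (−0.056) of Spag9. Leaving out 1 array gave −0.104 to 0.0853 for 1426233_at, −0.215 to 0.121 for 1437195_x_at of Mapk10, −0.0741 to 0.0782 for 1448342_at, −0.0191 to 0.136 for 1420931_at and −0.0345 to 0.0361 for 1420932_at. It gave −0.037 to 0.112 for 1435045_s_at and −0.189 to 0.0179 for 1449225_a_at of Mapk8ip2, −0.121 to 0.147 for 1416437_a_at of Mapk8ip3 and −0.0178 to 0.0855 for 1421878_at. For Spag9 it gave −0.221 to 0.0422 for 1430556_at, −0.0704 to 0.136 for 1433648_at and −0.32 to 0.112 for 1437676_at. The causes were not tested. With all probe sets of each neighbour in place of the brightest, the median over the neighbours of Mapk8 was −0.0126 log2. Those of the other 8 measured members ran from −0.043 to 0.111. In limma 0 neighbours were called, beside 0.0407% of all tested probe sets. Detection calls were not used here, so for dim probe sets the share of background is unknown.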
